A study of Mus musculus with 8 samples.

Results

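Cells take up iron bound to transferrin, the carrier encoded by Trf, when the loaded carrier binds the transferrin receptor Tfrc and enters by endocytosis. The divalent metal transporter Slc11a2 (DMT1) then moves the iron out of the endosome, ferritin built from Fth1 and Ftl1 chains stores it, ferroportin (Slc40a1) exports it, and heme oxygenase 1 (Hmox1) frees it from heme. The iron regulatory proteins Aco1 (IRP1) and Ireb2 (IRP2) bind a short RNA hairpin, the iron-responsive element (IRE): bound in a 5′UTR it blocks translation, and bound in the 3′UTR of the receptor transcript it protects the message. Oligodendrocytes (OLs) are the iron-rich cells of the brain, and mature OLs are a main local source of transferrin.

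These 9 genes were taken by symbol from the 24346 genes of the expression table, and 8 of them had a mean of at least 1 FPKM (fragments scaled to transcript length and to the number of mapped fragments), the level required for testing. RNA was measured in primary mouse oligodendrocyte precursor cells (OPCs) driven to immature OLs (iOLs), with 4 Med23+/+ and 4 Med23-/- libraries. The OPCs came from brains of postnatal day 7 pups by immunopanning on CD140a after depletion of endothelial cells and microglia, and were grown in Sato medium under 10% CO2, with NT-3 at 1 ng/ml and PDGF-AA at 10 ng/ml as mitogens. All 8 libraries were then harvested after 1 day in CNTF (10 ng/ml) and T3 (15 nM), so an undifferentiated stage was not analysed here. Med23 codes for a subunit of the Mediator complex. The Med23-/- cells carried floxed Med23 and Cre expressed from the Olig1 locus, so that deletion depended on the OL lineage, while the Med23+/+ cells came from floxed littermates without Cre. The sex of the pups and how many were pooled per library are not given in the sources used here.

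The Med23 transcript itself was measured at 12.5 ± 0.225 FPKM (SD, n = 4) in Med23+/+ iOLs and at 8.26 ± 0.247 FPKM (SD, n = 4) after deletion, 0.658 times as much (log2 fold change -0.55, limma adjusted p = 0.000353). Whether the FPKM counts exons outside the deleted part was not tested. The summed level of 5 lineage markers (Olig1, Olig2, Sox10, Pdgfra, Cspg4) was 1139 to 1541 FPKM in Med23+/+ and 1369 to 1838 FPKM in Med23-/- iOLs. Within that sum the progenitor markers were higher after deletion, Pdgfra at 121 ± 17.2 against 334 ± 9.59 FPKM and Cspg4 (NG2) at 38.9 ± 8.38 against 103 ± 12.6 FPKM, while Sox10 was lower at 255 ± 23.1 against 183 ± 32.4 FPKM (SD over 4 libraries per genotype, limma adjusted p = 2.33e-05, 0.000141 and 0.0203). All 7 of the 11 myelin and late differentiation markers that could be tested were lower in Med23-/- iOLs, with a median log2 fold change of -1.75, and the other 4 stayed under 1 FPKM in every library. Of 7 neuronal markers 6 were higher, and their sum was 36.1 to 56.9 FPKM in Med23+/+ against 72.9 to 175 FPKM in Med23-/- iOLs, with the highest sums in Med23-/- replicates 3 (175 FPKM) and 4 (140 FPKM). Summed astrocyte markers overlapped (107 to 154 against 88.4 to 142 FPKM), but of the 7 markers Gfap (13.6 ± 11.1 against 3.12 ± 2.26 FPKM) and Aqp4 (6.81 ± 2.44 against 2.34 ± 1.69 FPKM) were lower and Slc1a2 (10.99 ± 3.001 against 17.8 ± 3.21 FPKM) was higher by the same test. Further, 0 of 10 microglial markers reached the level for testing (sums of 1.10 to 2.45 against 2.20 to 3.21 FPKM), and summed hemoglobin and other erythroid markers reached at most 0.701 FPKM. Endothelial markers summed to 0.509 to 1.19 against 1.17 to 2.97 FPKM, and pericyte and fibroblast markers to 0.826 to 7.57 against 2.32 to 13.2 FPKM. The part of this cell composition and differentiation stage in the iron gene values was not tested, and in bulk RNA fewer cells of a type and less RNA per cell cannot be told apart.

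The IREs that a strict pattern found in 4 of the 9 genes are shown because such elements are where the 2 iron regulatory proteins act on storage, export and uptake transcripts. They were found in GENCODE vM21 transcripts (mm10), on the transcript strand, by a pattern made of C, then 5 bases, then CAGTGN with N not G, then 5 bases that pair with the first 5 (G-U pairs allowed). Capitals mark the unpaired C and the loop of 6 bases, and each sequence is 27 bases long.
Fth1, 5′UTR, chr19:9982733-9982759, plus strand: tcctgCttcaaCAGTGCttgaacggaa
Ftl1, 5′UTR, chr7:45459780-45459806, minus strand: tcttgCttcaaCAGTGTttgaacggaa
Slc40a1, 5′UTR, chr1:45925466-45925492, minus strand: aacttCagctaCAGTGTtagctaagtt
Tfrc, 3′UTR, element 1, chr16:32631220-32631246, plus strand: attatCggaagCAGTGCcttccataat
Tfrc, 3′UTR, element 2, chr16:32631599-32631625, plus strand: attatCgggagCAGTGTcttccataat
Tfrc, 3′UTR, element 3, chr16:32631664-32631690, plus strand: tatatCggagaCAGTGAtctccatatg
Tfrc, 3′UTR, element 4, chr16:32631711-32631737, plus strand: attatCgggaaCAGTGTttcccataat

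The hairpins of both ferritin chains shared 25 of 27 bases. The Fth1 element differed from the Ftl1 element at C3T and C17T, counted from 1 at the 5′ end with the Fth1 base first. The 4 receptor elements that the pattern found differed from one another at 2 to 10 positions, and the Slc40a1 element differed from those of the ferritin chains at 14. The pattern occurred in a 5′UTR of 23 of 21877 protein-coding genes (0.105%) and in a 3′UTR of 100 (0.457%), and Tfrc held 4 matches in 1 annotated transcript. Not every transcript of a gene carried it: it was present in 4 of 5 coding transcripts of Fth1, 1 of 2 of Ftl1, 1 of 4 of Slc40a1 and 1 of 3 of Tfrc, and the FPKM values are sums over transcripts. These letters were not found in the UTRs of Trf, Slc11a2, Hmox1, Aco1 or Ireb2. The matches are not a full list, since transcripts of Slc11a2 with a 3′UTR IRE are known and this pattern did not match them.

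FPKM is scaled per length, so levels could be ordered across genes. Over the 8 libraries the storage genes stood far above the rest, with Ftl1 at a mean of 736 FPKM and Fth1 at 271 FPKM, the latter above 98.1% of all tested genes. Ireb2 (41.3 FPKM), Aco1 (37.8 FPKM) and Tfrc (35.0 FPKM) formed a middle tier whose ranges overlapped; Ireb2 exceeded Aco1 in 6 of 8 libraries and Aco1 exceeded Tfrc in 6 of 8. Slc11a2 (13.9 FPKM) and Hmox1 (9.18 FPKM) overlapped too, with Slc11a2 above Hmox1 in 7 of 8 libraries. Trf averaged 2.19 FPKM, above 9.62% of the tested genes, and Slc40a1 0.265 FPKM. The remaining neighbours in this order did not overlap in any library.

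**Figure D1:**
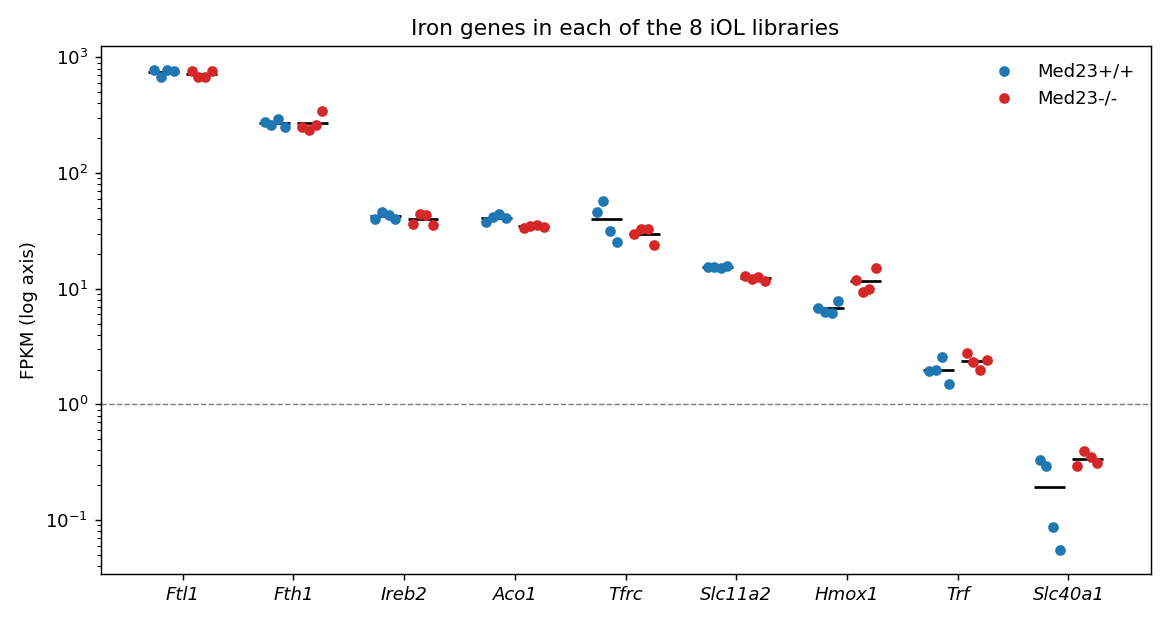
FPKM (log axis) of the 9 iron genes in each of the 4 Med23+/+ (blue) and 4 Med23-/- (red) iOL libraries, in replicate order within each group, with the group mean as a black bar and the level required for testing (1 FPKM) as a dashed line. Ftl1 and Fth1 lie above 200 FPKM in every library, Slc40a1 lies below the line in every library, and the groups separate for Slc11a2, Aco1 and Hmox1.

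Between genotypes, Hmox1 rose in Med23-/- iOLs, while Slc11a2 and Aco1 fell and the other 5 tested genes (Trf, Tfrc, Fth1, Ftl1, Ireb2) did not pass the test. That is 2 of 8 lower and 1 of 8 higher by limma on log2(FPKM + 1) with Benjamini-Hochberg adjusted p under 0.05 over 12328 genes, where 14.1% of all genes tested were lower, 15.9% were higher and 30.0% were either. The same 3 genes were those whose genotypes did not overlap, set against 15.3% of all genes with every Med23-/- library below and 16.3% with every one above, 31.6% in all. None of the 8 changed more than 2-fold. Of all genes 1.75% were lower, 2.98% higher and 4.73% either, with such a change on the log2(FPKM + 1) scale and the test passed. For 8 genes, 0 is near that share. The median log2 fold change of the 8 was -0.07, beside -0.01 for all genes tested. A log2 fold change on the log2(FPKM + 1) scale understates the change of low genes such as Trf.

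**Figure D2:**
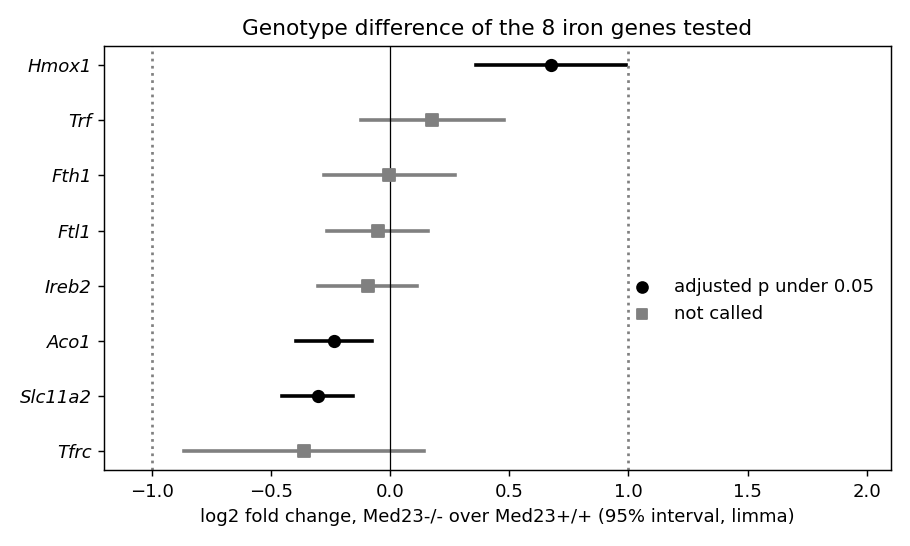
Log2 fold change, Med23-/- over Med23+/+, of the 8 tested iron genes with its 95% interval from limma on log2(FPKM + 1); black circles passed an adjusted p of 0.05, grey squares did not, and dotted lines mark a 2-fold change. Hmox1 (0.68) lies to the right of 0, Slc11a2 (-0.30) and Aco1 (-0.24) to the left, and the widest interval belongs to Tfrc (-0.87 to 0.14).

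Among the genes of iron uptake, Trf, which codes for the carrier (chr9:103204001-103230444, minus strand), read 1.96, 1.99, 2.56 and 1.503 FPKM in Med23+/+ replicates 1 to 4 and 2.80, 2.33, 1.98 and 2.41 FPKM in Med23-/- replicates 1 to 4. The groups overlapped, and the mean was 2.002 ± 0.431 FPKM (SD, n = 4) against 2.38 ± 0.339 FPKM (SD, n = 4). The log2 fold change was 0.18 (SE 0.13, 95% interval -0.12 to 0.48, limma adjusted p = 0.356), in libraries where every tested myelin marker was lower. An overlapping annotated gene on the same strand, Gm20425, could share its reads.

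Tfrc, the receptor that takes transferrin in (chr16:32608920-32632794, plus strand), had the widest spread relative to its mean within Med23+/+ of the 8 tested genes. It read 45.8, 57.8, 31.8 and 25.5 FPKM in Med23+/+ replicates 1 to 4. The Med23-/- replicates 1 to 4 read 29.8, 33.2, 32.6 and 23.8 FPKM. Only Med23+/+ replicates 1 and 2 stood above all Med23-/- libraries; the coefficient of variation was 35.9% in Med23+/+ and 14.4% in Med23-/- iOLs. The mean of 40.2 ± 14.5 FPKM (SD, n = 4) against 29.8 ± 4.29 FPKM (SD, n = 4) gave a log2 fold change of -0.36 (SE 0.23, 95% interval -0.87 to 0.14, limma adjusted p = 0.260), and -0.17 without Med23+/+ replicate 2.

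The second principal component over all tested genes (15.6% of the variance) separated replicates 1 and 2 from replicates 3 and 4 in both genotypes, a split that the labels do not name. Tfrc averaged 51.8 against 31.5 FPKM in replicates 1 and 2 (log2 ratio -0.70) and 28.7 against 28.2 FPKM in replicates 3 and 4 (log2 ratio -0.02). A test of this difference, chosen after seeing the data, gave 0.66 on the log2 scale (SE 0.26) and a limma adjusted p of 0.668 over all genes, so the difference did not pass. For Slc11a2, Aco1 and Hmox1 the same test gave adjusted p values of 0.975, 0.926 and 0.937.

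Slc11a2, which carries iron out of the endosome (chr15:100387898-100425072, minus strand), read 15.4, 15.5, 15.2 and 15.7 FPKM in Med23+/+ replicates 1 to 4 and 12.9, 12.1, 12.6 and 11.7 FPKM in Med23-/- replicates 1 to 4. Every Med23-/- library lay below every Med23+/+ library, and the spread within each genotype was small. The mean went from 15.5 ± 0.205 FPKM (SD, n = 4) to 12.3 ± 0.539 FPKM (SD, n = 4), 0.798 times as much, with a log2 fold change of -0.30 (SE 0.07, 95% interval -0.45 to -0.16, limma adjusted p = 0.0077). The difference was called in 18 of 18 alternative settings. Without Med23-/- replicates 3 and 4, a setting added after seeing the data, the log2 fold change was -0.29 (limma adjusted p = 0.0432). The neuronal marker sums of the remaining Med23-/- replicates 1 and 2 (99.3 and 72.9 FPKM) still exceeded the highest Med23+/+ sum (56.9 FPKM). The part of neuronal RNA in this difference was therefore not tested. The opposite-strand neighbour of Slc11a2, Gm5475, was at or near 0 FPKM in every library.

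**Figure D3:**
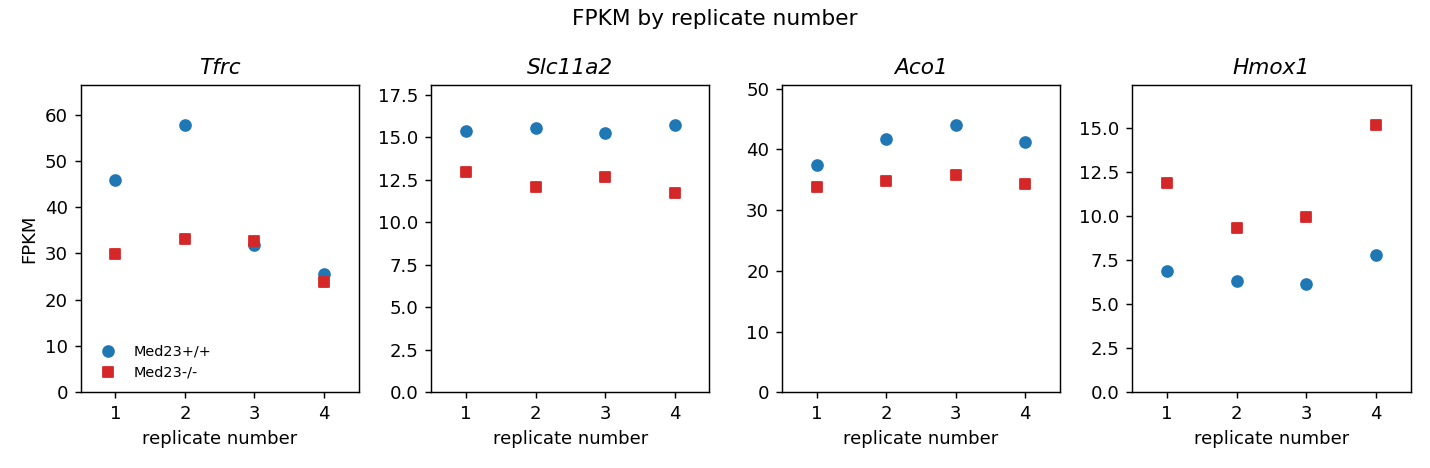
FPKM (linear axis from 0) against replicate number for Tfrc, Slc11a2, Aco1 and Hmox1, with Med23+/+ as blue circles and Med23-/- as red squares; replicate numbers are names and have no order. For Tfrc the genotypes are apart in replicates 1 and 2 (51.8 against 31.5 FPKM on average) and together in replicates 3 and 4 (28.7 against 28.2 FPKM), while for the other 3 genes the genotypes do not overlap.

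Neither ferritin chain passed the test. Fth1, the heavy chain with ferroxidase activity (chr19:9980598-9985098, plus strand), read 275, 262, 292 and 250 FPKM in Med23+/+ replicates 1 to 4 and 250, 234, 260 and 344 FPKM in Med23-/- replicates 1 to 4. Med23-/- replicate 4 was the highest of the 8 and the other 3 Med23-/- libraries lay within or below the Med23+/+ range. The mean was 270.0 ± 17.8 FPKM (SD, n = 4) against 272.0 ± 49.4 FPKM (SD, n = 4), and the log2 fold change was -0.003 (SE 0.12, 95% interval -0.28 to 0.27, limma adjusted p = 0.989), so the mean was slightly higher in Med23-/- on the linear scale and slightly lower on the log scale. Without Med23-/- replicate 4 the log2 fold change was -0.12.

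Ftl1, the light chain that helps form the iron core (chr7:45457944-45459884, minus strand), was at 779, 681, 776 and 761 FPKM in Med23+/+ replicates 1 to 4 and at 766, 682, 679 and 763 FPKM in Med23-/- replicates 1 to 4. The values of the 2 genotypes interleaved, at 749 ± 45.9 against 722 ± 48.9 FPKM (SD over 4 libraries per genotype). The log2 fold change was -0.05 (SE 0.09, 95% interval -0.26 to 0.16, limma adjusted p = 0.715). Like that of every other iron gene tested, this interval did not reach the 2-fold line on either side. Ferritin genes have annotated copies elsewhere in the genome (Fth-ps2, Fth-ps3, Ftl1-ps1, Ftl1-ps2 and Ftl2-ps), which were not analysed here; reads matching more than one place were weighted by the quantifier, so both ferritin levels are uncertain to that extent. The ratio of Fth1 to Ftl1 within a library came to 0.361 ± 0.0253 for Med23+/+ against 0.376 ± 0.0556 for Med23-/- (SD over 4 libraries per genotype; two-sided exact permutation test on the log2 ratio, p = 0.771).

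Slc40a1, the only known iron exporter (chr1:45908068-45926523, minus strand), was listed at 0.333, 0.293, 0.0875 and 0.0555 FPKM in Med23+/+ replicates 1 to 4 and at 0.292, 0.394, 0.350 and 0.312 FPKM in Med23-/- replicates 1 to 4. Only Med23+/+ replicates 3 and 4 lay below the rest, and all 8 values fell under the level required for testing. The mean was 0.193 ± 0.141 against 0.337 ± 0.0450 FPKM (SD over 4 libraries per genotype; two-sided exact permutation test on the log2 scale, p = 0.143). With no filter on low values limma gave 0.17 on the log2 scale (adjusted p = 0.176). A genotype difference in ferroportin mRNA was not detectable at these levels.

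Hmox1, which breaks heme down into iron, carbon monoxide and biliverdin (chr8:75093621-75100589, plus strand), read 6.88, 6.29, 6.15 and 7.80 FPKM in Med23+/+ replicates 1 to 4. The Med23-/- replicates 1 to 4 read 11.9, 9.34, 9.95 and 15.2 FPKM. Every Med23-/- library exceeded every Med23+/+ library, and replicate 4 was the highest in both genotypes. The mean rose from 6.78 ± 0.749 to 11.6 ± 2.62 FPKM (SD over 4 libraries per genotype), 1.71-fold, with a log2 fold change of 0.68 (SE 0.14, 95% interval 0.36 to 0.99, limma adjusted p = 0.00614). It was called in 18 of 18 alternative settings, at 0.55 without Med23-/- replicate 4 (adjusted p = 0.0074) and at 0.57 without Med23-/- replicates 3 and 4 (adjusted p = 0.0185).

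The constitutive isoform Hmox2 averaged 27.5 ± 0.799 FPKM in Med23+/+ iOLs and, after deletion, 26.9 ± 2.48 FPKM (SD over 4 libraries per genotype), with a log2 fold change of -0.03 (95% interval -0.21 to 0.15, limma adjusted p = 0.809). Hmox2 therefore had the higher level of the 2 heme oxygenases in all 8 libraries, and Hmox1 was the one that differed by the test. The enzymes that pass biliverdin on did not pass it, at a log2 fold change of -0.01 for Blvra and 0.17 for Blvrb.

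Of the 2 iron regulatory proteins, Aco1 (chr4:40143081-40198338, plus strand), which is a cytosolic aconitase when it holds an iron-sulfur cluster and binds IREs when it does not, fell. It read 37.4, 41.6, 44.0 and 41.1 FPKM in Med23+/+ replicates 1 to 4 and 33.7, 34.7, 35.7 and 34.3 FPKM in Med23-/- replicates 1 to 4. All Med23-/- libraries lay below all Med23+/+ libraries, the nearest pair being 35.7 and 37.4 FPKM. The mean went from 41.0 ± 2.74 to 34.6 ± 0.842 FPKM (SD over 4 libraries per genotype), 0.844 times as much, with a log2 fold change of -0.24 (SE 0.07, 95% interval -0.40 to -0.08, limma adjusted p = 0.0314). This call was not stable: it held in 10 of 18 alternative settings and was lost after quantile normalization (-0.15, adjusted p = 0.150), without Med23-/- replicates 3 and 4 (-0.25, adjusted p = 0.0819), and without any 1 of Med23+/+ replicates 2, 3 or 4 or Med23-/- replicates 1, 2 or 4 (adjusted p up to 0.0867).

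Ireb2, the regulator that is degraded when iron is plentiful (chr9:54863789-54912530, plus strand), read 40.4, 46.1, 43.8 and 39.96 FPKM in Med23+/+ and 36.4, 44.2, 43.3 and 35.8 FPKM in Med23-/- replicates 1 to 4. In both genotypes replicates 2 and 3 were above replicates 1 and 4, and the groups overlapped. The mean of 42.6 ± 2.90 against 39.9 ± 4.44 FPKM (SD over 4 libraries per genotype) gave a log2 fold change of -0.09 (SE 0.09, 95% interval -0.30 to 0.11, limma adjusted p = 0.487), and 0.01 after quantile normalization. The log2 ratio of Aco1 to Ireb2 within a library came to -0.05 ± 0.09 for Med23+/+ against -0.19 ± 0.13 for Med23-/- (SD over 4 libraries per genotype), a difference of -0.14 that did not pass (two-sided exact permutation p = 0.171, or 0.514 adjusted over the 3 ratios). The log2 ratio of Tfrc to Fth1, receptor against store, was -2.78 ± 0.51 and -3.14 ± 0.45 (exact permutation p = 0.343, adjusted 0.514).

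After each genotype's mean was removed, some of the 9 genes still varied together over the 8 libraries. The log2 values of Hmox1 and Ireb2 ran against each other (Pearson r = -0.89), as did Ftl1 and Ireb2 (r = -0.89), while Hmox1 went with Ftl1 (r = 0.66) and Fth1 (r = 0.65) and Tfrc went against Ftl1 and Fth1 against Slc11a2 (r = -0.63 each). The other 22 of the 28 pairs had r between -0.56 and 0.56. Replicate 4 had the highest Hmox1 and the lowest Tfrc and Ireb2 in both genotypes. These are descriptions over 8 points that share library preparation and scaling.

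Over the 8 libraries with the genotype difference left in, the tested genes whose log2(FPKM + 1) followed each iron gene most closely were as follows, again as a description. For Hmox1 they were Ppargc1b (Pearson r = 0.998), Mmp15 (0.996) and Sept9 (0.994), for Slc11a2 they were Ube2e2 (0.989), Gp1bb (0.988) and Pcdh20 (0.981), and for Aco1 they were Tmco1 (0.995), Stk32a (0.988) and Fam20b (0.988). For Ireb2 they were Mtif2 (0.982), Zfx (0.970) and Rab2a (0.968), for Tfrc they included Rnf4 (0.968) and Trmt10c (0.959), and for Fth1 they were Klhdc4 (0.971), Tpm3 (0.952) and Hnrnpm (0.949). For Ftl1 they included R3hdm4 (0.958) and Med16 (0.957), and for Trf they were Tgfbr3l (0.954), Zbtb3 (0.918) and 9430065F17Rik (0.895). Med16, near Ftl1, codes for another Mediator subunit, and none of the 9 iron genes was among the nearest genes named. With 12328 genes and 8 libraries, high values of r arise easily.

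In the RefSeq promoter table (GRCm38.p6), 5 of the 9 genes had an entry. In the 250 bases before the start, the GC box GGGCGG, read on either strand, occurred 3 times for Aco1, 2 times for Ireb2 and 1 time for Ftl1, and each of 2 annotated starts of Fth1 (0 and 3 times) and Tfrc (0 and 1 times) differed. Of 32851 promoters 32.7% held at least 1, 16.2% at least 2 and 7.69% at least 3 such boxes. These counts are descriptions of the sequence only.

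Beyond the 9 genes, 81 further genes of iron handling were examined by role, of which 59 could be tested. In Med23-/- iOLs 7 of the 59 were lower, 5 were higher and 47 did not pass. Among all genes tested 14.1% were lower and 15.9% higher. On the log2(FPKM + 1) scale 0 of the 59 passed with a change over 2-fold, beside 4.73% of all genes. In mean FPKM without the added 1, Epas1 did exceed 2-fold, at 2.37 times as much in Med23-/- iOLs. Their median log2 fold change was -0.01, as it was for all genes. Listed at 0 in every library were 7 genes, the hepcidins Hamp and Hamp2, hemojuvelin Hfe2, the ferritin receptor Timd2, mitochondrial ferritin Ftmt, and the reductase Steap4 and ferroxidase Hephl1.

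**Figure D4:**
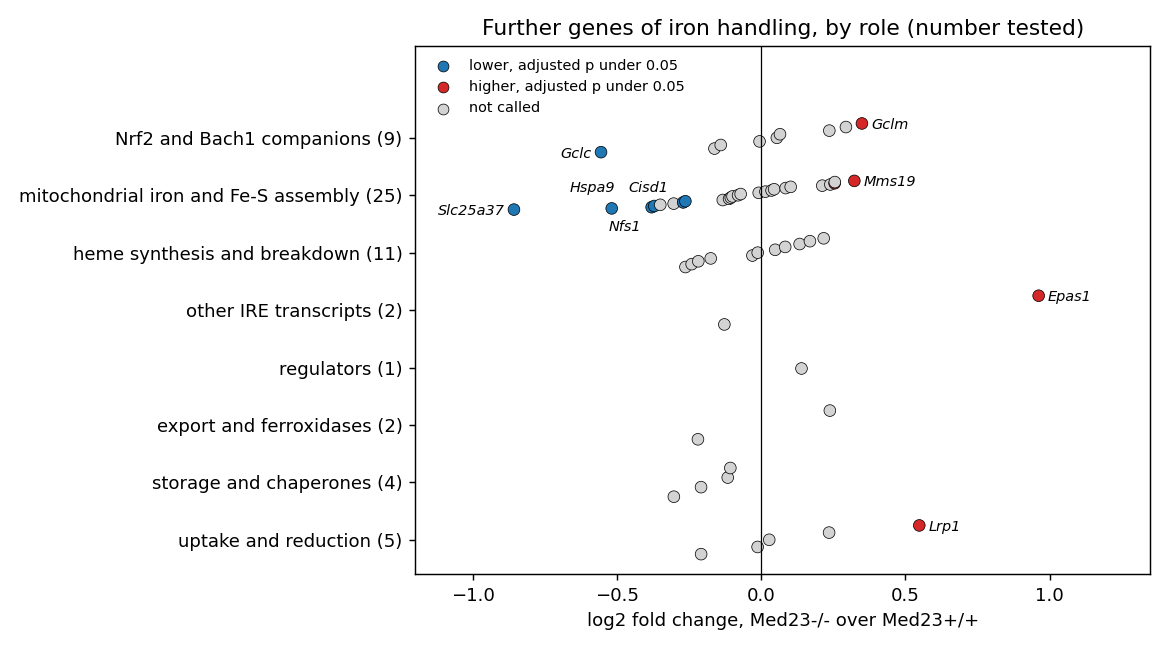
Log2 fold change, Med23-/- over Med23+/+, of the 59 further iron genes tested, 1 point per gene, grouped by role with the number tested in parentheses; the height of a point within its row carries no value. Blue points were lower and red points higher with a limma adjusted p under 0.05, and the row of mitochondrial iron and iron-sulfur cluster assembly, which holds 25 of the 59 genes, has 8 of the 12 called, near the 30.0% called among all genes.

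Of the 7 lower genes 6 belonged to mitochondrial iron use, the largest group, in which 6 of 25 tested genes were lower and 2 were higher, a share called near the 30.0% of all genes tested. Slc25a37 (mitoferrin 1), which imports iron into mitochondria, went from 13.6 ± 1.36 FPKM in controls to 7.03 ± 0.502 FPKM after Med23 deletion (SD over 4 libraries per genotype), with every Med23-/- library below every Med23+/+ library. Its log2 fold change was -0.86 (SE 0.09, limma adjusted p = 0.00017), beside -0.30 for Slc11a2 and -0.24 for Aco1, and its paralog Slc25a28 did not pass the test (0.26, adjusted p = 0.281). Hspa9 (mortalin), the chaperone of cluster transfer, was at 106 ± 7.13 against 74.0 ± 7.37 FPKM (log2 fold change -0.52, adjusted p = 0.00229), and Nfs1, the cysteine desulfurase that supplies the sulfur, at 16.1 ± 0.569 against 12.2 ± 1.76 FPKM (-0.38, adjusted p = 0.0177).

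The scaffold Iscu did not pass the test (log2 fold change -0.01, limma adjusted p = 0.953). Cisd1, Isca2 and Ciapin1 were lower at adjusted p values of 0.0472, 0.0473 and 0.0488, and were called in 7, 8 and 4 of 18 alternative settings. Mms19, which helps load clusters onto nuclear proteins, was higher at 11.2 ± 0.726 against 14.3 ± 0.760 FPKM (SD over 4 libraries per genotype; 0.32, adjusted p = 0.0114), and the assembly protein Isca1 was higher at 26.5 ± 1.80 against 31.7 ± 1.60 FPKM (0.25, adjusted p = 0.0300), called in 11 of 18 settings. Slc25a37, Hspa9 and Mms19 were called in 18 of 18, and Nfs1 in 17 of 18, failing without Med23-/- replicates 3 and 4.

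The other roles held between 1 and 11 tested genes each, too few for their counts to be set apart from all genes tested, of which 14.1% were lower and 15.9% higher. Of 5 tested uptake and reduction genes 1 was higher, Lrp1, a receptor that takes up heme bound to hemopexin among many other ligands, at 101 ± 6.72 against 148 ± 10.96 FPKM (SD over 4 libraries per genotype; log2 fold change 0.55, limma adjusted p = 0.0012). Of 4 storage genes and chaperones 0 passed; Ncoa4, which sends ferritin to the lysosome, had all Med23-/- libraries below all Med23+/+ libraries at 71.8 ± 1.26 against 58.5 ± 8.74 FPKM, with a log2 fold change of -0.30 and an adjusted p of 0.0515. All 11 heme synthesis and breakdown genes stayed between -0.26 and 0.22 on the log2 scale with 0 called. Of the tested genes, 0 of 2 for export and 0 of 1 regulators were called. Among regulators below the level for testing, Bmp6 read 0.326 ± 0.103 against 1.18 ± 0.301 FPKM, with every Med23-/- library higher. Tmprss6 read 0.378 ± 0.0701 against 0.245 ± 0.0473 FPKM, and its groups overlapped (SD over 4 libraries per genotype). Neither difference was tested. Epas1 (HIF-2 alpha), whose transcript is known to carry an IRE, rose from 2.38 ± 0.278 to 5.65 ± 1.08 FPKM (SD over 4 libraries per genotype; log2 fold change 0.96, adjusted p = 0.000728).

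Hmox1 is a known target of the activator Nrf2 and the repressor Bach1, so 10 companions of that pathway were examined, 9 of them testable. Gclc, the catalytic subunit of the enzyme that makes the glutathione precursor, fell from 17.3 ± 1.19 to 11.4 ± 0.602 FPKM (SD over 4 libraries per genotype; log2 fold change -0.56, limma adjusted p = 0.000742), while Gclm, the modifier subunit of the same enzyme, rose from 13.5 ± 1.06 to 17.4 ± 0.934 FPKM (0.35, adjusted p = 0.00955). The other 7 did not pass, among them Nfe2l2 itself (Nrf2, -0.16, adjusted p = 0.547), Bach1 (-0.01, adjusted p = 0.968), Nqo1 (0.29, adjusted p = 0.177), Txnrd1 (-0.14, adjusted p = 0.134) and Srxn1 (0.24, adjusted p = 0.187). That is 1 of 9 lower and 1 of 9 higher, beside 14.1% and 15.9% of all genes tested.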

How the data were processed

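The 9 genes and the lists of further iron genes and cell markers were chosen with earlier results of these data known. The submitters' processing notes name cutadapt, TopHat2, Cuffdiff and the build mm10; per the study's methods Cuffdiff ran with bias correction and weighting of reads that map to several places. Versions, the gene annotation and the use of strand are not given in the sources used here. The authors deposited 1 FPKM value per gene and library (8 columns, 0 library columns left out), and columns with their own fold changes, p-values and q-values, which were not used. FPKM values hold no read totals, so the depth is unknown; from the steps between low values, 1 read was worth 0.753 to 1.01 times its worth in Med23+/+ replicate 1, and 15941 to 16469 genes were above 0. No 2 libraries were identical.

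From these values log2(FPKM + 1) was computed for the 12328 genes averaging 1 FPKM or more across the libraries, and the genotypes were compared with limma 3.58.1 (R 4.3.3; lmFit, and eBayes with a variance trend), with Benjamini-Hochberg adjustment over all genes tested and a threshold of 0.05. Ratios within a library and Slc40a1 were compared by two-sided exact permutation tests, which cannot go below p = 0.0286 with 4 against 4 libraries. The labels do not say that replicates came from separate cultures or animals, so p-values measure only the spread between these libraries. On simulated data of the same 12328 genes for this comparison, 49 of 100 genes changed by 0.5 on the log2 scale and 91 of 100 changed by 1 were called, 0 in the wrong direction, with 7 calls among unchanged genes. The changed genes were drawn only from moderate to high levels, so low genes such as Trf were not covered. A far smaller share of genes changed in the simulation than was called in the data, and its noise was independent between libraries.

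Named were the 9 genes, Med23, copies of the ferritin genes, called genes of each further group (at most 5 by size, and others needed for the counts) and the 3 tested genes nearest to each iron gene by Pearson correlation, of which some are not reported here; single uncalled genes such as Ncoa4, Hmox2, Blvra, Blvrb, Iscu, Slc25a28 and the Nrf2 companions were picked with their values in view. The main comparison has no replicate block. Alternatives were another pseudocount (0.1), no filter or one at 5 FPKM, sample weights, a constant prior variance (no trend), scaling by median ratios or quantiles, a replicate block, a covariate for replicates 1 and 2 against 3 and 4, and leaving out each library; leaving out Med23-/- replicates 3 and 4 and the test of the difference between replicates 1 and 2 and replicates 3 and 4 were added after seeing the data. A count test was not run. Figures were drawn with matplotlib 3.10.9.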

Additional observations from a re-analysis of the deposited data

Results flagged for a closer look

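In 44 groups of 4 libraries examined for a single library far from the others, 1 was set apart by Dixon's 95% criterion, where chance alone sets apart about 1 group in 20. It was Mms19 in Med23-/- iOLs, at 13.2 FPKM in replicate 3 and 14.6 to 14.8 FPKM in the other 3 replicates. Without that library Mms19 was still called higher.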

How the results depend on the processing

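Of 176 alternative fold changes and ratios, 161 kept their direction and their side of the threshold, 8 lost the call (all Aco1) and 7 reversed; of 114 alternative counts of genes, 94 stayed within 1.5 times the reported count. Hmox1 and Slc11a2 were called in 18 of 18 alternatives at an adjusted p of 0.05 without a fold change limit, and Trf, Tfrc, Fth1, Ftl1 and Ireb2 in none. The count of lower genes among the 8 was 1 instead of 2, by the loss of Aco1, after quantile normalization and without Med23-/- replicates 3 and 4. In another setting a 2-fold change on the log2(FPKM + 1) scale was also required. It left 0 of the 8 lower and 0 higher, 0 and 0 of the further iron genes, and 216 and 367 of all genes. The further iron genes called lower numbered 4 with no filter, with no variance trend and without Med23-/- replicates 3 and 4, where 3 were higher; a filter at 5 FPKM left 1281 of all genes higher. Leaving out 1 library gave 1 to 2 of the 8 lower and 1 higher, 4 to 7 further genes lower (4 without Med23-/- replicate 1) and 4 to 6 higher, and 1234 to 1669 of all genes lower and 1552 to 1867 higher; fewer samples enter these fits. The log2 fold change of Fth1, near 0, turned positive without Med23+/+ replicate 1 (0.0061) or 3 (0.035) and without Med23-/- replicate 1 (0.032), 2 (0.064) or 3 (0.013), a range of -0.12 to 0.06 with 1 library left out, and was -0.16 without Med23-/- replicates 3 and 4. That of Ireb2 was 0.0064 after quantile normalization. The difference in the log2 ratio of Fth1 to Ftl1 was 0.05, was -0.041 without Med23-/- replicate 4 and ranged up to 0.11. Without Med23+/+ replicate 2 the log2 fold change of Tfrc was -0.17 instead of -0.36. The causes were not tested. Same-numbered replicates had correlations of their deviations from the group means of 0.13, -0.10, -0.03 and 0.16, and 3 of 8 libraries correlated best with their own number, so pairing by number was not shown and cannot be dismissed. With the replicate number as a block, 15 of 67 iron genes were called, as without it, 13 of them in both (Isca1 and Ciapin1 were lost at adjusted p of 0.0556 and 0.0622, Ncoa4 and Glrx5 gained at 0.0432 and 0.0487), and 3920 against 3695 of all genes; Tfrc stayed uncalled at an adjusted p of 0.103. The median of all genes lay between -0.04 and 0.01 in every setting. The depth is unknown.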
